A study of Homo sapiens with 8 samples.

Results

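The open regions of human chromosome 19 in the H1650 lung cancer line were described here from ATAC-seq peak lists. The chromosome was divided into 2 stretches named as zinc finger gene clusters and the remainder. Members were selected by position alone: the peaks of all 8 lists were merged where they overlapped or touched, and every merged region on chromosome 19 of the hg19 build was taken. This gave 1585 of the 46665 regions in the series (3.40%). A region belonged to a cluster when its midpoint lay between 19.5 and 24.6 Mb (19p cluster, 67 regions) or between 52.4 and 59.1 Mb (19q cluster, 212 regions), and the other 1306 regions formed the rest of the chromosome. Membership rests on a peak having been called in at least 1 list, so the number of regions, their density and the number of libraries that list them are given as descriptions, with no test.

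ATAC-seq marks open chromatin by letting a transposase insert adapters into accessible DNA. H1650 is an established non-small cell lung cancer line, and the study silenced hMENA, the actin regulator encoded by ENAH, or its epithelial isoform hMENA11a. The 4 groups had 2 replicates each. Untreated cells received no siRNA; siControl cells received 20 nmol/L of a non-targeting pool; siMena11a cells received 20 nmol/L of a mix of 3 siRNAs directed at exon 11a; and siMena cells received 20 nmol/L of a pool directed at ENAH, all 3 with a lipid transfection reagent. All cells were of this 1 line, the labels do not state the time from transfection to harvest, and peak lists hold no measure of how far ENAH was silenced.

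Chromosome 19 is the most gene-dense human chromosome and is rich in GC, CpG islands and Alu repeats. It carries long tandem arrays of KRAB zinc finger genes, which encode DNA-binding repressors that recruit TRIM28 and bring repressive histone methylation to transposable elements. In many cell types these arrays combine accessible promoters with gene bodies that themselves carry repressive histone methylation. Among protein-coding genes that RefSeq places on chromosome 19 in GRCh38.p14, 265 of 1451 (18.3%) had symbols of zinc finger genes, and the longest unbroken run of neighbours with such symbols held 27 genes, from ZNF737 to ZNF681. Other long runs held 24 genes (ZNF627 to ZNF791), 24 (ZNF565 to ZNF793), 20 (ZNF283 to ZNF180), 16 (ZNF530 to ZNF256) and 11 (ZNF699 to ZNF846). No gene annotation of hg19 was used here, so regions are given by position, without gene, exon or intron, and the cluster names were not checked against genes. The place of these runs against the cluster limits was not checked either, so the rest may hold zinc finger gene runs too.

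The lists differed greatly in length, and the difference followed the replicate number as well as the group. The replicate 1 lists held 16570 to 43893 rows, the untreated replicate 2 list 26076, and the lists of the 3 transfected replicate 2 libraries 5886 (siControl), 3156 (siMena11a) and 1165 (siMena). A row is 1 summit, and rows of the same interval were joined into 1 peak. Read totals are unknown, but the genome-wide background that the peak caller used could be recovered from its fold and p-value columns: it was 0.538 to 0.935 tags in the replicate 1 libraries and 1.09 to 2.88 tags in the replicate 2 libraries. The labels do not say what the replicate number marks or whether replicates were separate cultures, so the p-values given here measure only the spread between these libraries.

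In the merged set of all lists, open regions were denser on chromosome 19 than on any other autosome, but not evenly so within it. That rank did not hold in the transfected replicate 2 lists. There chromosome 20, spanning 59.5 Mb, held 2.51% (siControl), 2.08% (siMena11a) and 2.49% (siMena) of autosomal peaks. Chromosome 19, spanning 55.1 Mb, held 1.02%, 1.08% and 1.69%. In the merged set chromosome 19 held 28.7 regions per Mb between its first and last region, leaving out the gap across the centromere. It was ahead of chromosomes 16 (22.7), 22 (21.9), 20 (21.8) and 17 (20.9), and chromosome 13 was the sparsest at 8.47. The 19q cluster, with 31.7 regions per Mb, was close in density to the rest of the chromosome, with 30. The 19p cluster held 13.8 regions per Mb, and the median gap between its neighbouring regions was 41.4 kb, against 20.1 kb in the 19q cluster and 19.6 kb in the rest. The 19p cluster thus had fewer regions for its length than the 19q cluster.

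The 2 widest stretches without regions lay in or next to the 19p cluster. The widest, 3.91 Mb at chr19:24376218-28283988, runs from the last region of the 19p cluster across the centromere. The next, 1.02 Mb at chr19:22235695-23257848, lies inside the 19p cluster, and the third, 0.945 Mb at chr19:31840797-32786148, lies on the long arm outside both clusters. Among bins of 1 Mb, the one from 49 to 50 Mb held the most regions, 59. Within the 19q cluster the fullest bin ran from 58 to 59 Mb and held 45.

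Regions of the clusters were wider than those of the rest. The median merged region measured 601 bp in the 19p cluster, 553.5 bp in the 19q cluster and 448.5 bp in the rest, and the median over all of chromosome 19 was 471 bp. No 19p region exceeded 1 kb (0 of 67), against 15 of 212 (7.08%) in the 19q cluster and 44 of 1306 (3.37%) in the rest. A merged region grows with the number of lists that add to it, and cluster regions were listed by more libraries, as described further on. Compared within each library on unmerged peaks, the width difference was not resolved: cluster peaks exceeded the rest by a mean of 0.05 ± 0.18 on the log2 scale (SD, n = 8 libraries), with 5 of 8 libraries positive and p = 0.508 in a two-sided exact permutation test by sign flips. The sign of that mean turned with several settings, for example to -0.22 when every list was shortened to its 1020 top peaks.

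The siMena11a replicate 1 library had the widest cluster peaks. Its median peak width was 561 bp in the 19p cluster, 532 bp in the 19q cluster, 433 bp in the rest and 379 bp on the other autosomes. In that library 42.6% of 19p peaks, 28.7% of 19q peaks and 21.8% of peaks in the rest had several summits, against 20.0% on the other autosomes. In siMena replicate 1 the order was different, with medians of 302, 318, 320 and 321 bp. On the log2 scale, cluster peaks exceeded the rest in median width by 0.34 in siMena11a replicate 1. In siMena replicate 1 the difference was only -0.03.

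Fold was higher in the clusters than in the rest of the chromosome in every library. The deposited fold is the pile-up of tags at a summit over the local background, and a peak with several summits was given its highest. Folds are comparable only within 1 list, so fold differences between libraries are given as descriptions, not as differences in openness. In untreated replicate 1 the median fold was 7.87 in the 19p cluster, 7.73 in the 19q cluster and 6.86 in the rest, and in untreated replicate 2 it was 6.70, 5.67 and 5.26. The siControl replicate 1 medians were 7.23, 6.25 and 5.66. Those of siMena11a replicate 1 were 8.17, 7.04 and 6.05, and those of siMena replicate 1 were 6.77, 5.90 and 5.46. The 19p cluster led in all 5 of these longer lists, followed by the 19q cluster.

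In the short replicate 2 lists the same comparison rests on few peaks. The siControl replicate 2 medians were 4.19 over 7 peaks in the 19p cluster, 4.60 over 8 peaks in the 19q cluster and 3.80 over 36 peaks in the rest. In siMena11a replicate 2 they were 4.30 over 4 peaks, 3.85 over 5 peaks and 3.95 over 20 peaks. The siMena replicate 2 list had no peak in the 19p cluster, 3 peaks in the 19q cluster with a median of 5.31, and 12 in the rest with a median of 4.05. Only in siMena11a replicate 2 was the 19q median below that of the rest.

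**Figure D1:**
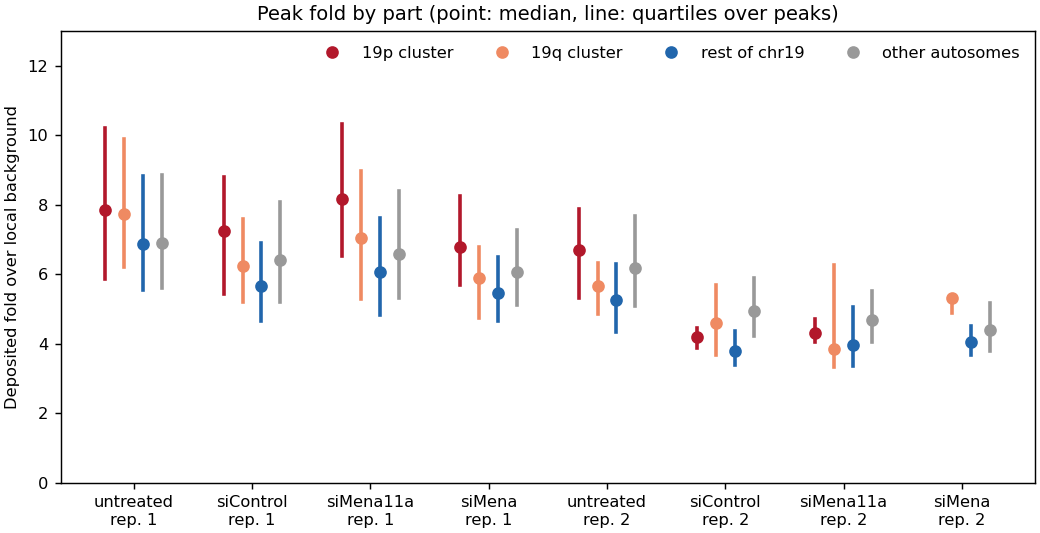
Median deposited fold over local background (points) with the quartiles over peaks (lines) for the 19p cluster, the 19q cluster, the rest of chromosome 19 and the other autosomes in each of the 8 libraries. The 19p points stand above the rest of the chromosome in all 7 libraries that have a 19p peak, and the rest of chromosome 19 stands below the other autosomes in all 8.

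For the 2 clusters pooled, the median log2 fold exceeded that of the rest by 0.21 ± 0.10 (SD, n = 8 libraries), positive in 8 of 8, with p = 0.00781 in the exact sign-flip permutation test, the smallest that 8 libraries allow. The lowest difference was 0.04, in siMena11a replicate 2, and the highest was 0.39, in siMena replicate 2. Local background, given as a multiple of the library's genome-wide background, differed between the parts as well. Its median in untreated replicate 2 was 1.98 at pooled cluster peaks and 2.42 at peaks in the rest. In siControl replicate 1 it was 2.16 and 2.72. The order was reversed in siMena replicate 2, with 2.99 over 3 cluster peaks and 2.17 in the rest. The 2 clusters also differed. Medians of the 19p cluster, 19q cluster and rest were 1.93, 2.51 and 2.42 in untreated replicate 1. In siControl replicate 1 they were 1.63, 2.48 and 2.72. They were 1.86, 2.97 and 2.79 in siMena11a replicate 1 and 1.49, 2.84 and 2.79 in siMena replicate 1. When summit tags were set over the genome-wide background of the library instead, the pooled difference was 0.06, with p = 0.688 in the exact permutation test. On that scale the 19q medians exceeded the rest in every replicate 1 library. They were 33.4 against 27.9 (untreated), 22.5 against 20.3 (siControl), 29.5 against 23.8 (siMena11a) and 23.4 against 20.7 (siMena). The 19p medians were 29.7, 18.2, 23.8 and 17.9, and 14.7, 6.62 and 6.09 in replicate 2 (siMena had none). In replicate 2 the 19q and rest medians were 16.5 and 16.5, 11.9 and 10.6, 10.6 and 11.4, and 17.4 and 9.73. On this scale the clusters were not tested apart.

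Outside the clusters, chromosome 19 peaks had lower folds than peaks of the other autosomes. The difference in median log2 fold was -0.18 ± 0.11 (SD, n = 8 libraries), negative in 8 of 8, with p = 0.00781 in the exact sign-flip permutation test. It was smallest in untreated replicate 1 (medians of 6.86 and 6.91) and largest in siControl replicate 2 (3.80 and 4.93). Local background at the peaks was higher in the rest of chromosome 19 than on the other autosomes in 8 of 8 libraries, by 0.45 ± 0.27 on the log2 scale (SD, n = 8, exact permutation p = 0.00781). That background difference in the replicate 1 libraries was 0.07 (untreated), 0.36 (siControl), 0.36 (siMena11a) and 0.39 (siMena). The replicate 2 libraries gave 0.32, 0.63, 0.98 and 0.52 in the same order. With summit tags over the genome-wide background, the fold difference was 0.13 in the opposite direction, with p = 0.0625 in the exact permutation test.

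The share of autosomal peaks that lay on chromosome 19 was lower in every replicate 2 library than in every replicate 1 library. In replicate 1 it was 3.71% for untreated cells, 3.64% for siControl, 4.03% for siMena11a and 4.2% for siMena. The replicate 2 libraries gave 2.94%, 1.02%, 1.08% and 1.69% in the same order. The means were 3.89% ± 0.264 and 1.68% ± 0.894 (SD, n = 4 each), and the difference of -2.21 percentage points had p = 0.0286 in a two-sided exact permutation test, the smallest that 4 against 4 libraries allow. Chromosome 19 was taken up with earlier results of these lists known, so this p is not independent evidence. After Benjamini-Hochberg adjustment over the 12 tests of this kind it did not pass (adjusted exact permutation p = 0.0857). With each list shortened to its 1020 top peaks the difference was -1.33 points, and p = 0.0857 in the exact permutation test.

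**Figure D2:**
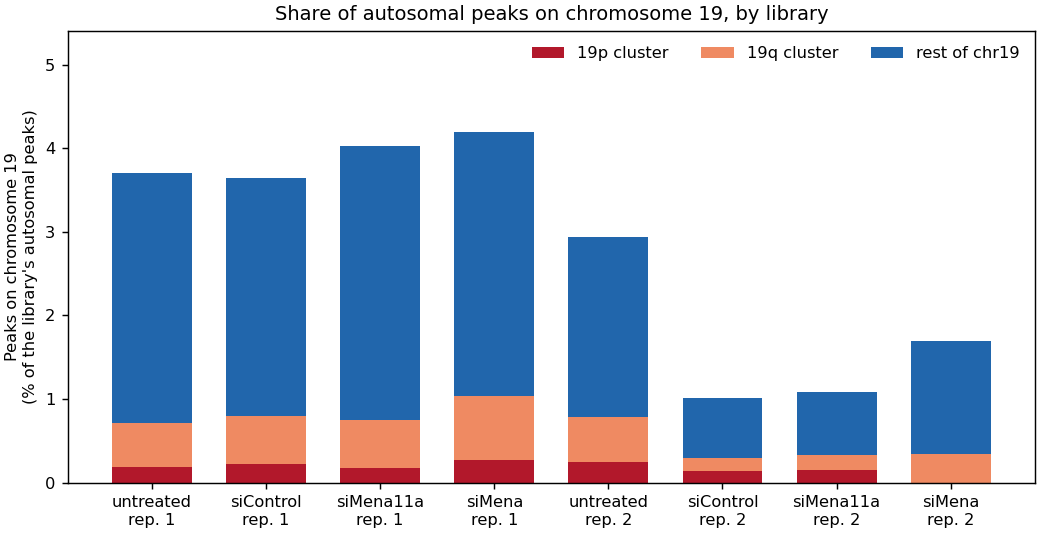
Peaks on chromosome 19 as a percent of each library's autosomal peaks, with the replicate 1 libraries at the left and the replicate 2 libraries at the right. Bars are stacked by the 19p cluster, the 19q cluster and the rest, and the 4 replicate 1 bars reach 3.64% to 4.2% while the replicate 2 bars reach 1.02% to 2.94%.

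Of the chromosome 19 regions listed in replicate 1 of a group, the untreated replicate 2 library listed 564 of 1216 (46.4%, 95% exact Clopper-Pearson interval 43.5% to 49.2%). For the transfected groups the counts were 34 of 931 in siControl (3.65%, 2.54% to 5.07%), 16 of 1366 in siMena11a (1.17%, 0.671% to 1.90%) and 7 of 571 in siMena (1.23%, 0.494% to 2.51%). These intervals cover counting error only. The other autosomes kept 51.5%, 17.8%, 7.19% and 4.71% in the same order. Ranked from the lowest of the 22 autosomes, chromosome 19 was number 4 in untreated, number 2 in siControl and siMena11a and number 1 in siMena cells.

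How density and retention went together over the 22 autosomes was not tested. The densest, chromosomes 19, 16, 22, 20 and 17, ranked 4, 14, 1, 7 and 5 from the lowest retention in untreated cells. In siControl cells they ranked 2, 5, 1, 9 and 3, in siMena11a cells 2, 8, 1, 6 and 4, and in siMena cells 1, 13, 3, 16 and 5. Chromosome 22, with 21.9 regions per Mb, was the lowest in 3 groups, with 38.2% kept in untreated, 2.54% in siControl and 0.995% in siMena11a, and kept 1.69% in siMena. Chromosome 16, slightly denser at 22.7 regions per Mb, kept 52.5%, 12.3%, 5.20% and 4.31%. Chromosome 17, at 20.9 regions per Mb, kept 47.7%, 7.73%, 3.05% and 2.70%. Chromosome 13, the sparsest, kept 50%, 11.4%, 2.49% and 1.60%.

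**Figure D3:**
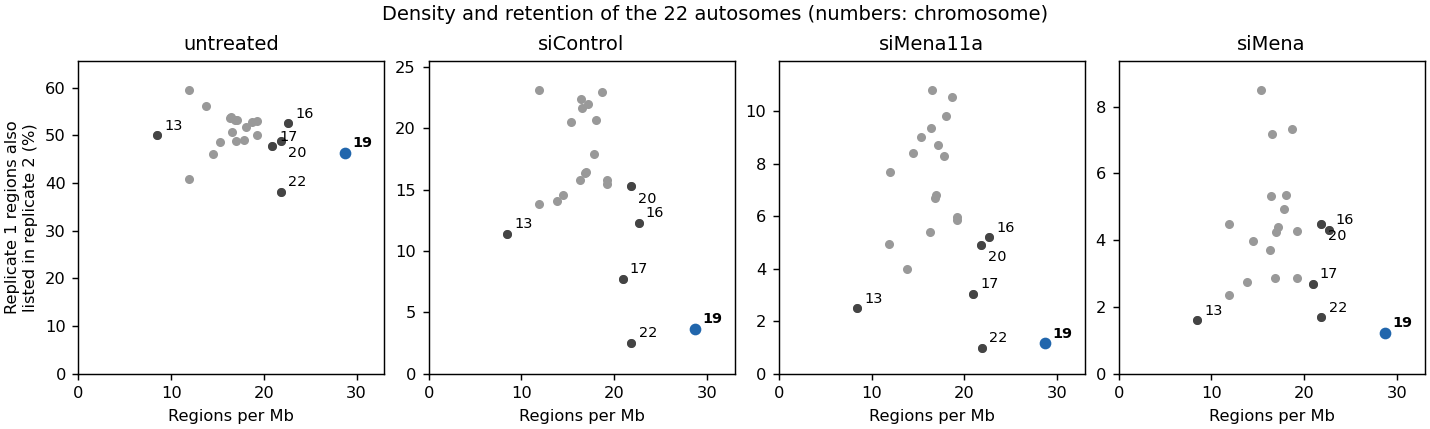
Percent of the replicate 1 regions of a chromosome that replicate 2 of the same group also listed, against regions per Mb, for the 22 autosomes in each group (vertical scales differ). Chromosome 19 lies furthest right at 28.7 regions per Mb and is at 46.4%, 3.65%, 1.17% and 1.23% in the 4 panels, with chromosome 22 near it in the transfected groups.

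Within chromosome 19, the 19p cluster was kept best in untreated cells. Untreated replicate 2 listed 46 of 58 replicate 1 regions of the 19p cluster (79.3%), 102 of 173 in the 19q cluster (59.0%) and 416 of 985 in the rest (42.2%). The siControl replicate 2 library listed 6 of 54 (11.1%), 4 of 146 (2.74%) and 24 of 731 (3.28%). The siMena11a pair shared 3 of 60 (5.00%), 2 of 192 (1.04%) and 11 of 1114 (0.987%). The siMena pair shared 0 of 37 in the 19p cluster, which allows a share of up to 8.11% by a limit of 3 counts (9.49% by the exact interval), 1 of 102 (0.980%) in the 19q cluster and 6 of 432 (1.39%) in the rest.

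The share kept in the clusters exceeded that in the rest by 21.8 percentage points in the untreated pair, 1.72 in the siControl pair and 0.997 in the siMena11a pair, and the difference was -0.669 in siMena cells. The mean of 5.97 ± 10.6 points (SD, n = 4 groups) had p = 0.250 in the exact sign-flip permutation test, whose smallest p with 4 groups is 0.125, and it was 0.681 points without the untreated pair. The rest of the chromosome had a lower share kept than the other autosomes in 4 of 4 groups, the difference being -9.26 points for the untreated pair, -14.6 for siControl, -6.21 for siMena11a and -3.32 for siMena. That mean difference of -8.34 ± 4.81 points (SD, n = 4 groups) had the smallest possible p, 0.125, in the exact permutation test. It was -5.96 points after weighting to the same replicate 1 fold quartiles, and -11.5 points after weighting to the same replicate 1 local background quartiles. Both weightings used replicate 1 values only, and the cause of the deficit against the other autosomes was not tested.

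In percentage points, the deficit in the transfected groups was largest in the highest fold quartile, where the other autosomes kept most. Among regions in the highest quartile of replicate 1 fold, the rest of chromosome 19 kept 81.5% in untreated cells against 84.5% on the other autosomes. In siControl cells the same quartile kept 13.3% (11 of 83) in the rest of chromosome 19, 14.6% (7 of 48) in the clusters and 45.2% on the other autosomes. In siMena11a cells it kept 2.99% (6 of 201), 5.49% (5 of 91) and 21.9%, and in siMena cells 3.28% (2 of 61), 0 of 28, which allows up to 10.7% by a limit of 3 counts, and 13.3%. In the lowest quartile of siControl cells the rest of chromosome 19 kept 0 of 282, which allows up to 1.06% by the same limit, against 3.42% on the other autosomes. In untreated cells the gap in points was wider at low than at the highest fold: the lowest quartile kept 15.7% (41 of 261) in the rest of chromosome 19, 38.5% (15 of 39) in the clusters and 26.7% on the other autosomes.

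**Figure D4:**
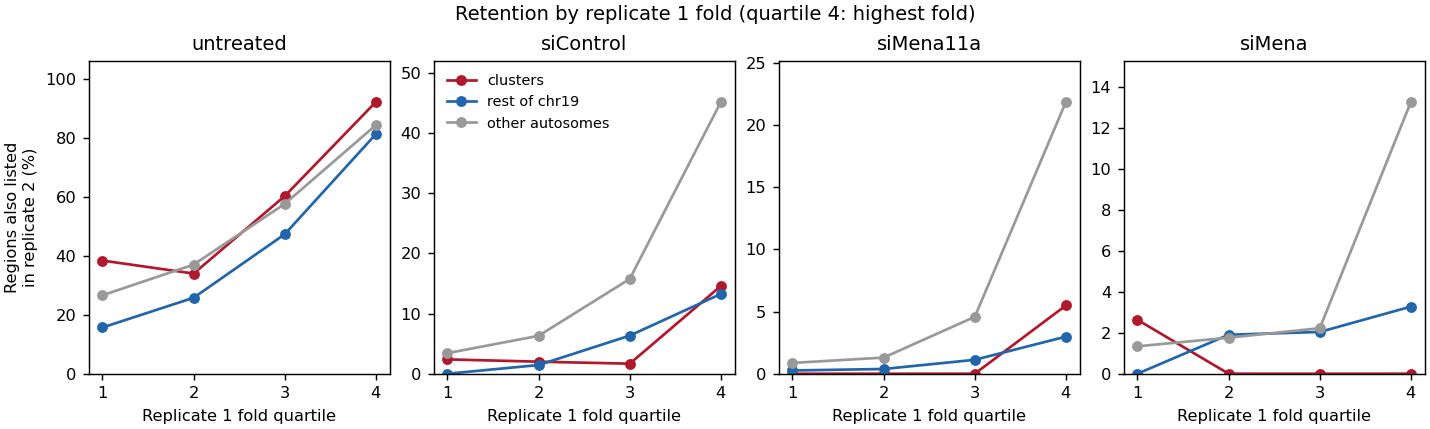
Percent of replicate 1 regions also listed in replicate 2 of the same group, by quartile of replicate 1 fold over all regions of that library (vertical scales differ), for the 2 clusters together, the rest of chromosome 19 and the other autosomes. In the highest quartile the 3 lines lie between 81.5% and 92.4% in untreated cells, whereas in siControl cells chromosome 19 is at 13.3% and 14.6% and the other autosomes at 45.2%.

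Where a region was listed in both replicates of a group, its fold was mostly lower in replicate 2, though folds of different lists are not on the same scale. In untreated cells the median log2 ratio of replicate 2 over replicate 1 was -0.33 over 46 regions of the 19p cluster, -0.65 over 102 of the 19q cluster and -0.71 over 416 of the rest, against -0.32 on the other autosomes. Over chromosome 19 as a whole only 27 of 564 untreated regions had the higher fold in replicate 2. The median ratio was -1.18 over 34 regions in siControl, -1.17 over 16 in siMena11a and -0.63 over 7 in siMena cells. Between clusters and rest the ratio differed by 0.17, -0.06, 0.02 and 1.16 in the 4 groups, the last resting on 1 cluster region, and the mean of 0.32 ± 0.57 (SD, n = 4 groups) had p = 0.375 in the exact permutation test. Without siMena the mean was 0.05.

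The clusters were listed by more libraries than the rest. All 4 replicate 1 libraries listed 34 of 67 regions of the 19p cluster (50.7%), 93 of 212 of the 19q cluster (43.9%), 388 of 1306 of the rest (29.7%) and 27.5% of those on the other autosomes. A single library listed 6 (8.96%), 35 (16.5%) and 363 (27.8%) in the 3 parts and 31.4% on the other autosomes. Of the 404 chromosome 19 regions listed by a single library, 224 were in siMena11a replicate 1 and 126 in untreated replicate 1, which had the longest lists. Any of the 3 transfected replicate 2 libraries listed 7 regions of the 19p cluster (10.4%), 10 of the 19q cluster (4.72%) and 43 of the rest (3.29%), against 12.3% on the other autosomes.

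**Figure D5:**
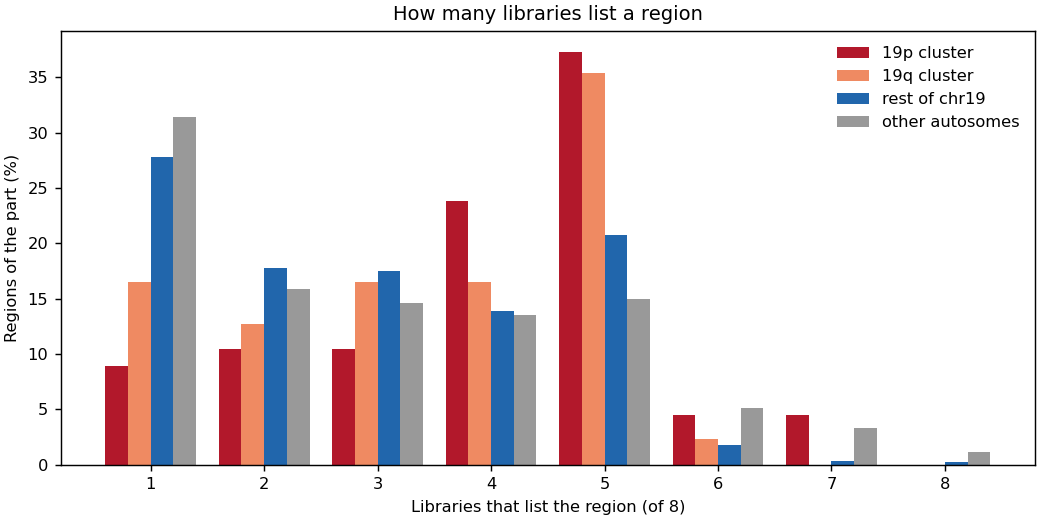
Percent of the regions of each part by the number of libraries, of 8, that list them. The most frequent number in both clusters is 5 libraries (37.3% of 19p and 35.4% of 19q regions), whereas in the rest of chromosome 19 (27.8%) and on the other autosomes (31.4%) it is 1 library.

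The fullest bin of the 19q cluster, from 58 to 59 Mb, was singled out after its values were seen. It held 45 regions, of which siMena11a replicate 1 listed 45, untreated replicate 1 listed 40, siControl replicate 1 listed 38 and siMena replicate 1 listed 29. Untreated replicate 2 listed 32 of them, its highest count in any bin of the chromosome, the next being 20. The siControl, siMena11a and siMena replicate 2 libraries each listed 0 of the 45, which allows a share of up to 6.67%. This was common: 23 of the 57 bins with a region had none in these 3 libraries, among them 53 to 54 Mb (27 regions) and 55 to 56 Mb (29 regions) in the same cluster. The bin from 54 to 55 Mb, with 37 regions, had 4, 2 and 2.

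The 19p regions listed by the most libraries had high folds in replicate 1 and lower folds in the transfected replicate 2 libraries. The region at chr19:19886869-19887802 (934 bp) was in 7 libraries. Its fold was 12.3 and 11.1 in untreated, 13.9 and 4.19 in siControl and 11.0 and 5.25 in siMena11a replicates 1 and 2, and 10.3 in siMena replicate 1. A neighbour at chr19:20162666-20163330 had folds of 13.7 and 11.8, 12.3 and 4.49, and 15.6 and 3.98 in the same pairs, and 12.1 in siMena replicate 1. In both regions the untreated pair lay close together, while the transfected replicate 2 values lay below every replicate 1 value. The regions at chr19:23577816-23578559 (7 libraries) and chr19:23432708-23433469 (6 libraries) followed the same order, with replicate 1 folds of 7.22 to 11.8 and transfected replicate 2 folds of 3.80 to 4.64.

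In the 19q cluster no region was in more than 6 libraries, 5 regions were in 6, and the 4 of these with the highest fold ranks are given first. The region at chr19:57018788-57019566 had folds of 13.7 and 10.5 in untreated, 10.6 and 4.65 in siControl, and 12.1 (siMena11a) and 8.80 (siMena) in the replicate 1 knockdowns. Next came chr19:52692755-52693752, with 11.7 and 9.03, 10.7 and 4.55, 11.2 and 9.86 in the same libraries. The regions at chr19:56651929-56652678 and chr19:57791150-57791976 were listed by siMena11a replicate 2, at 3.32 and 3.85, and not by siControl replicate 2. All 4 were listed by all 4 replicate 1 libraries and by untreated replicate 2.

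Outside the clusters, 3 regions were listed by all 8 libraries. At chr19:34882127-34883205 the folds were 6.98 and 5.58 in untreated, 7.28 and 6.06 in siControl, 5.78 and 6.93 in siMena11a and 8.81 and 5.70 in siMena replicates 1 and 2. This region had overlapping replicate 1 and replicate 2 values. Its local background, over the genome-wide background of the library, was 2.79 to 4.41 in replicate 1 and 4.02 to 5.68 in replicate 2. At chr19:28283989-28285327, the first region above the centromeric gap, the folds were 8.41 and 9.81, 8.09 and 4.84, 9.23 and 4.32, and 7.18 and 4.43. At chr19:59117653-59118246, just above the upper 19q limit, they were 7.81 and 4.0, 7.08 and 3.70, 7.76 and 3.35, and 5.56 and 4.64. The 4th region of the rest, chr19:33667485-33668728, was in 7 libraries, with replicate 1 folds of 8.54 to 9.72, and replicate 2 folds of 8.14 (untreated), 3.98 (siMena11a) and 3.71 (siMena).

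The widest region of each part was also described. In the 19q cluster it was chr19:54693169-54694886 (1718 bp, 6 libraries), with folds of 4.52 to 7.03 in replicate 1. Its local backgrounds there were 8.38 to 14.5 times the genome-wide background of the library. In the rest it was chr19:41283165-41284724 (1560 bp, 5 libraries), with replicate 1 folds of 7.01 to 10.0, and in the 19p cluster chr19:23954558-23955493 (936 bp, 4 libraries), with replicate 1 folds of 7.14 to 8.33. None of these 3 was in the siMena11a or siMena replicate 2 lists.

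At the limits of the clusters, members just inside and just outside were as follows, with no test. Below the lower 19p limit, chr19:19496004-19496901 was listed by 6 libraries, and the first region inside, chr19:19516078-19516667, by 4. Their folds in untreated replicate 1 were 14.7 and 4.92. The last 19p region, chr19:24375532-24376217, was in 3 libraries, and the next outside is the region beyond the centromeric gap given above. At the lower 19q limit the regions were chr19:52391057-52391392 outside (3 libraries) and chr19:52408001-52408410 inside (2 libraries). At the upper 19q limit they were chr19:59086594-59087349 inside (5 libraries) and chr19:59117653-59118246 outside (8 libraries). With the limits moved inward by 0.5 Mb the fold difference between clusters and rest was again 0.21.

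Some regions appeared only in replicate 2 libraries. There were 35 on chromosome 19 (2.21% of its regions): 3 in the 19p cluster, 7 in the 19q cluster and 25 in the rest, against 7.02% of regions on the other autosomes. The region at chr19:1142019-1142323 was in all 4 replicate 2 libraries and no replicate 1 library, with folds of 4.31 (untreated), 6.01 (siControl), 4.72 (siMena11a) and 5.20 (siMena). Likewise chr19:48459179-48459539 was in these 4, with 3.96, 3.85, 4.22 and 3.19. The regions at chr19:15889919-15890213, chr19:3649311-3649836 and, in the 19q cluster, chr19:54860966-54861447 were in the 3 transfected replicate 2 libraries, with folds of 3.20 to 5.05. Among the transfected replicate 2 libraries, 13 of the 15 siMena regions on chromosome 19 were in siControl and 13 in siMena11a. Of the 28 siMena11a regions 18 (64.3%) were in siControl, and 18 (36.0%) of the 50 siControl regions were in siMena11a and 13 (26.0%) in siMena.

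Silencing hMENA11a, set against siControl, gave no chromosome 19 region that was open in both libraries of 1 group and neither of the other. Counted in this way over the genome, 0.034% of regions listed in any of the 4 libraries were gained and 0.068% were lost, and on chromosome 19 0 of 1426 were gained and 0 were lost. Only 16 chromosome 19 regions were open in both siMena11a libraries and only 34 in both siControl libraries, so that 0 allows up to 18.8% of the 16 and 8.82% of the 34. Silencing all hMENA, against siControl, gave 0 gained and 0 lost of 995, where 0.00359% and 1.73% were called over the genome, and with 7 regions open in both siMena libraries, a gain in up to 42.9% of them is allowed. Only the 34 regions open in both siControl libraries could be lost, and 0 allows up to 8.82% of them. Over the genome, 10.4% of the regions that could be lost in this comparison were lost. Between the siMena11a and siMena knockdowns 0 of 1388 were gained in siMena11a and 0 were lost, where 0.314% and 0.0084% were called over the genome. Only 16 regions could be gained in siMena11a and only 7 lost, so that 0 allows up to 18.8% and 42.9% of them.

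Within replicate 1 the lists differed mainly in length. The siMena11a library listed 887 of the 931 siControl regions on chromosome 19 and 479 more, and at shared regions the median log2 fold of siMena11a over siControl was 0.25, against 0.13 on the other autosomes. The siMena library listed 523 of the 931 and 48 more, with a median log2 fold of -0.19 at shared regions, against -0.29 on the other autosomes. In replicate 2, siMena11a shared 18 of the 50 siControl regions and had 10 of its own, and siMena shared 13 and had 2 of its own. Each of these is 1 library against 1 and has no replicate check.

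Transfection with the non-targeting pool gave 1 gained and 40 lost regions on chromosome 19 against untreated cells. Of 1347 regions tested there, 1 (0.0742%) was gained, against 0.137% over the genome, and 40 (2.97%) were lost, against 4.15% over the genome. Of the 40 lost regions, 32 lay in the rest, 4 in the 19p cluster and 4 in the 19q cluster. Only 564 chromosome 19 regions were open in both untreated libraries and could be lost, and the siControl replicate 2 list held 50 chromosome 19 regions in all. Without untreated replicate 2 the lost count was 367, without untreated replicate 1 it was 73 and without siControl replicate 1 it was 530, while without siControl replicate 2 it was 42. The gained count was 69 without siControl replicate 2, 13 without siControl replicate 1 and 2 without untreated replicate 1.

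The gained region, chr19:54637106-54637605 in the 19q cluster, had folds of 3.59 and 5.66 in siControl replicates 1 and 2, 6.27 in siMena11a replicate 2, and 3.87 and 5.47 in siMena. It was in neither untreated list nor in siMena11a replicate 1, and it is the 1 cluster region that both siMena libraries listed. Among the lost regions chr19:9938029-9938776 had folds of 9.24 and 6.92 in untreated and 7.19 in siMena11a replicate 1. The regions at chr19:33237145-33237536 and chr19:29451941-29452527 had 8.42 and 6.41, and 6.82 and 7.03, in untreated, and 6.95 and 6.60 in siMena11a replicate 1. At chr19:43525916-43526200 the values were 6.48, 6.32 and 6.43 in the same 3 libraries. The region at chr19:36623397-36623713, with 5.48 and 4.53 in untreated, was in siMena replicate 1 at 3.88. Each of these 5 regions that were not listed in siControl was thus listed in replicate 1 of a knockdown.

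The share of chromosome 19 peaks that lay in the clusters was compared between groups, but 2 libraries per group could resolve no difference. It was 19.1% and 26.4% in untreated, 22% and 29.4% in siControl, 18.5% and 31.0% in siMena11a and 24.6% and 20.0% in siMena replicates 1 and 2, the last from 3 of 15 peaks. The means were 22.8% ± 5.18, 25.7% ± 5.26, 24.7% ± 8.89 and 22.3% ± 3.24 (SD, n = 2 each). Against siControl the difference was -0.945 points for siMena11a (exact permutation p = 1) and -3.40 for siMena (exact permutation p = 0.667). The difference was 2.91 points for siControl against untreated (exact permutation p = 0.667) and 2.45 for siMena11a against siMena (exact permutation p = 1), and 2 against 2 libraries cannot give a p below 0.333. Within replicates 1 and 2 these 4 differences were -3.51 and 1.62, 2.61 and -9.41, 2.85 and 2.96, and -6.12 and 11.0 points.

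Of the 12 results tested by exact permutation, 3 passed 0.05 after Benjamini-Hochberg adjustment: the higher fold of the clusters, the lower fold of the rest of chromosome 19 against the other autosomes and its higher local background there, each with an adjusted p of 0.0312 and the same direction in 8 of 8 libraries. The fold is taken over local background, so the last 2 are not separate results. Over the genome-wide background the excess of the pooled clusters was 0.06 (exact permutation p = 0.688), with the 19p and 19q clusters differing as given above. The deficit of the rest turned to 0.13 in the opposite direction (exact permutation p = 0.0625). Retention in the rest of chromosome 19 against the other autosomes had an adjusted p of 0.3, lower in 4 of 4 groups by exact permutation. The share of peaks on chromosome 19 had an adjusted p of 0.0857, as given above, and the other 7 had adjusted p-values of 0.5 to 1.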

How the data were processed

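Each of the 8 ATAC-seq libraries had 1 deposited peak list in hg19. Per the submitters' processing notes, the tools were MACS2 2.2.5, SAMtools 1.7, Bowtie2 2.3.4.2 and FastQC 0.11.5, named with no role or settings. Trimming, duplicate removal, any shift of reads for the transposase and the peak caller's settings are not given in the sources used here. Peaks were called per library: each deposited row holds a score, a fold ratio, −log10 p and −log10 q values and a summit offset made by the authors, and the score is 10 times the −log10 q value in nearly all rows. The lowest −log10 q value was 2.00.

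Rows of 1 interval were joined and given the highest fold. Peaks were merged over libraries where they overlapped or touched, and a library listed a region when 1 of its peaks lay in it. Summit tags and local background were solved from fold and p-value, and 100% of rows came out as whole tags within 0.001. Differences were tested within libraries or groups by exact sign flips, and between libraries by exact permutation, all two-sided, with a threshold of 0.05 and Benjamini-Hochberg adjustment over the 12 tested results. Python 3.11.15, numpy 2.4.6, pandas 2.3.3 and SciPy 1.17.1 were used, and the calculations were tested on simulated data.

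Members, parts and the rule for named regions were chosen with earlier results of these data known. Named were, per part, the 4 regions in most libraries, ties broken by within-list fold rank, and the widest; those beside each limit; up to 5 gained or lost per comparison, ranked by score; and 5 listed in most replicate 2 and no replicate 1 libraries. Alternatives were a stricter score, shortened lists, moved limits, each cluster alone, 50% cover, fold and background weighting, and leaving out libraries or groups. Background weighting, genome-wide background and the alternatives for local background and for retention against the other autosomes were added after the data were seen. The plan of tests had no entry for local background or for retention of the rest against the other autosomes.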

Additional observations from a re-analysis of the deposited data

How the results depend on the processing

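The pooled cluster excess in fold was 0.064 over the genome-wide background. It was 0.21 and 0.20 with only replicate 1 or only replicate 2 libraries, where 4 libraries cannot pass the threshold. Without each library it was 0.18 to 0.23. The width difference turned to -0.018 with moved limits, -0.062 with a score of at least 50, -0.22 with shortened lists and -0.036 in replicate 2 alone. The fold deficit of the rest against the other autosomes turned to 0.13 over the genome-wide background and was -0.12 and -0.24 in replicate 1 and replicate 2 alone; its background excess was 0.29 and 0.62 there. The causes were not tested.

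The chromosome 19 share differed by -1.33 points with shortened lists and by -2.69 to -1.96 points without each group, where 3 against 3 libraries cannot pass; paired within groups it was -2.21, exact permutation p = 0.125. The cluster share of siMena against siControl turned to 0.140 points, and of siMena11a against siMena to -4.41, with a score of at least 50. Without each library the cluster share differences ran from -7.23 to 5.34 (siMena11a against siControl), -7.12 to 0.322 (siMena against siControl), -0.815 to 6.63 (siControl against untreated) and -3.83 to 8.74 (siMena11a against siMena). With the replicate number as a replicate block they were -0.945, -3.40, 2.91 and 2.45, with exact permutation p = 1, 1, 0.5 and 1, of which 0.5 is the smallest possible; the block changed no call. The labels do not say that the number marks a shared batch.

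Counts of gained and lost regions rest on single libraries. Without each library, gained and lost counts ran from 1 to 476 and 1 to 43 for siMena11a against siControl, from 0 to 47 and 0 to 408 for siMena against siControl, from 1 to 69 and 42 to 530 for siControl against untreated, and from 1 to 804 and 1 to 9 for siMena11a against siMena. With a score of at least 50 the siControl gain was 2. With 50% cover, 4 of the 6 named gained or lost regions were called. The 7 to 50 regions open in both libraries of a transfected group, or listed in its replicate 2, limit what could be detected.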

Other observations

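An unlocalized contig assigned to chromosome 19 in hg19, which the selection left out, had more peaks in replicate 2 than in replicate 1 of each group, on small counts. On 19_gl000208_random the replicate 1 libraries listed 3 (untreated), 4 (siControl), 4 (siMena11a) and 4 (siMena) peaks, and the replicate 2 libraries listed 6, 8, 6 and 7. The highest fold of any peak there reached 6.32, 7.56, 6.21 and 6.31 in the first 4 of these libraries, and 7.69, 8.72, 6.76 and 7.58 in the others. On 19_gl000209_random only untreated replicate 2 listed peaks, 2 in number. No test was run on these counts.

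Chromosome 22 had the lowest share kept of the autosomes in siControl and siMena11a cells. Chromosomes 17 (7.73% and 3.05%) and 13 (11.4% and 2.49%) were low in these 2 groups as well. The share of autosomal peaks on chromosome 22 was 1.52% and 0.319% in siControl replicates 1 and 2 and 1.78% and 0.521% in siMena11a, against 1.26% and 1.24% in siMena.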
